A study of Mus musculus with 7 samples.

Results

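Mmp14, Col18a1, Bgn and Lpl are 4 genes that build, hold or cut the extracellular matrix, or are anchored to it, and were taken by symbol from the 769 gene models that the authors' deposited table lists, out of 11778 in their adjustment. They were chosen by their group means and fold change in that table, which showed them higher in old than in young cells, so the means, fold changes and standard errors that follow describe the choice and support nothing beyond it. Each symbol matched 1 gene model. The cells were megakaryocyte progenitors, the bone marrow cells that give rise to megakaryocytes and platelets, sorted from mice by the phenotype Lin-cKit+Sca1-CD150+CD41+. The young group has 3 libraries from mice aged 3 months. The old group has 4 libraries, labelled 18 to 20 months in one field and 20 months in another. All mice of both groups came from a cross of Flt3-cre and mTmG animals. In such mice a membrane red reporter, Tomato (Tom), is replaced by a green one, GFP, in cells whose own or ancestral Flt3-driven Cre has acted. The labels speak of Tom+ or GFP+ fractions without saying which library came from which. The strain is C57BL/6, except for old library 4, labelled C57BL/7. The young titles share the prefix mkpgy. The old titles carry mkpgo (old libraries 1 and 2) and mkpto (old libraries 3 and 4), and the meaning of the prefixes is unstated. The young prefix and mkpgo differ only in the last letter, while mkpto has no young counterpart. Age and title kind are thus confounded in part, and group means alone cannot separate them. The old column of the deposited table has a name that matches none of these prefixes, so which of the 4 old libraries its means hold is not stated.

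The deposited values are group means of normalized counts, with no value per library, so whether young and old libraries overlap could not be seen, and the depth of each library is unknown. The labelled cell type could be checked only in part, since genes that did not differ carry no value: of 18 megakaryocyte markers only Selp, the adhesion receptor P-selectin of platelets and endothelium, had a row, with means of 496 and 2358. No label names separate animals, so the authors' standard error (SE) may reflect technical spread. In bulk RNA a higher mean from more cells of a type and one from more RNA per cell cannot be told apart.

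The extracellular matrix of bone marrow is a mesh of collagens, proteoglycans and glycoproteins to which progenitors and megakaryocytes attach, and membrane-bound and secreted proteases cut it. Mmp14 encodes a membrane-anchored matrix metalloproteinase that cleaves collagen and other matrix proteins at the cell surface and activates the secreted protease Mmp2. Col18a1 encodes the core of collagen XVIII, a heparan sulfate proteoglycan of basement membranes whose C-terminal fragment, endostatin, restrains the growth of vessels. Bgn encodes biglycan, a small leucine-rich proteoglycan that binds collagen and, once released, can engage Toll-like receptors. Lpl encodes lipoprotein lipase, which hydrolyses the triglycerides of lipoproteins while held by heparan sulfate chains or by Gpihbp1 on endothelium. It is an enzyme bound to the pericellular matrix, not a structural part of it.

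The promoters of 3 of the 4 genes are shown because these genes share a direction here, and the sequence next to the start is what the rule did not use. They are the 250 bases before the annotated start in RefSeq on build GRCm38.p6, the assembly of mm10, and no entry was found for Lpl. Col18a1 has 2 starts. Each line runs 5′ to 3′ on the gene's own strand, with every match to GGGCGG or its reverse complement, the GC box, in capitals.
Mmp14, chr14:54431348-54431597, plus strand: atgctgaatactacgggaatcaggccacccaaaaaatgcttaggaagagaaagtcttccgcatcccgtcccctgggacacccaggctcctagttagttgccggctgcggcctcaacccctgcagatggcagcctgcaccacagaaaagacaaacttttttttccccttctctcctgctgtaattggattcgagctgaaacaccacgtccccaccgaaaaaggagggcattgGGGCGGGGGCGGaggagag
Col18a1, first start, chr10:77166531-77166780, minus strand: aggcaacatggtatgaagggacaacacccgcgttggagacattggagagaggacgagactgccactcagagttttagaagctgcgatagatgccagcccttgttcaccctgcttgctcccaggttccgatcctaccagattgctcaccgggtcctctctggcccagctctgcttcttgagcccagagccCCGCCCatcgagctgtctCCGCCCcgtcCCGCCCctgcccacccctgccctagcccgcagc
Col18a1, second start, chr10:77113706-77113955, minus strand: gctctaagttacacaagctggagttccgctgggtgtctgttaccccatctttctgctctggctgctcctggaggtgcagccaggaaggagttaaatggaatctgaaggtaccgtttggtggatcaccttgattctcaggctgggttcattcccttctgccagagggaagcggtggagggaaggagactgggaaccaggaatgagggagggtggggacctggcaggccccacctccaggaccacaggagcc
Bgn, chrX:73483351-73483600, plus strand: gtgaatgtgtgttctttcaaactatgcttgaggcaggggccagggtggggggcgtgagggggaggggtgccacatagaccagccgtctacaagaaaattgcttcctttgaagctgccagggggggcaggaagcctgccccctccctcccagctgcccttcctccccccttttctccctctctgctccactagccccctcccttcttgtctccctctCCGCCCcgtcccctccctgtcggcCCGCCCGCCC

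The promoters of Mmp14 (2 matches), Bgn (3 matches) and the first start of Col18a1 (3 matches) held the GC box within these windows, and the second start of Col18a1 held 0. Overlapping matches were counted separately. Among 32851 RefSeq promoter windows of the same length, 32.7% held at least 1 such match. The windows were richer in G and C than the median of 52.4%: 55.2% for Mmp14, 62% and 57.6% for the starts of Col18a1, and 64.4% for Bgn. CpG pairs numbered 10, 12, 3 and 7 in the same order, against a median of 6. The second start of Col18a1 thus differed from its first by fewer CpG pairs and by having no GC box.

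Each of the other motifs searched, on both strands, was found in at most 2 of these 4 windows. The CCAAT box (CCAAT, in 33.8% of all windows) was found 2 times at Mmp14 and 1 time at the first start of Col18a1. The RUNX letters TGTGGT (14% of windows) were found 1 time at Mmp14 and 1 time at the second start of Col18a1. The ETS letters CGGAAG (13.6%) were found 1 time, at Mmp14. TATAAA (12.4%), the GATA letters AGATAA (9.99%) and the AP-1 letters TGANTCA (6.75%) had 0 matches in these 4 windows. These are matches of letters, not binding sites.

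The protease gene Mmp14 went from a mean of 58.1 normalized counts in young cells to 280 in old ones (the authors' deposited table). It had the smallest fold change of the 4 genes. The ratio of the means was 4.81, and the log2 fold change was 2.27 with an SE of 0.43, the smallest SE of the 4. The interval at 95%, taken from that SE, runs from 2.69-fold to 8.69-fold, and the authors' adjusted p was 5.00e-05. The gene lies on chromosome 14 from 54431612 to 54445364 on the plus strand (GENCODE M21, build GRCm38), with 11 exon blocks.

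Col18a1, the collagen XVIII gene, had the largest fold change of the 4, from a mean of 6.67 normalized counts in young to 280 in old in the authors' deposited table. That is a ratio of 42.0 and a log2 fold change of 5.39, which ranks 26 among the 302 higher calls. Its SE, 1.41, was the largest of the 4 and 3.26 times that of Mmp14, although their mean counts in old were alike. The interval at 95% is accordingly wide, from 6.16-fold to 284-fold, and the authors' adjusted p was 0.00903. Because the young mean is low, the fold depends on the scale: with a pseudocount of 10 added to both means, the log2 ratio was 4.12. The gene spans 114371 bases of chromosome 10, from 77052178 to 77166548 on the minus strand, in 44 exon blocks. The table holds 1 gene model for it, so the 2 starts printed above cannot be separated in these counts.

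Bgn, the biglycan gene, had a mean of 13.8 normalized counts in young and 104 in old in the authors' deposited table. The ratio was 7.56 and the log2 fold change 2.93 (SE 0.85), with an interval at 95% from 2.42-fold to 24.0-fold. Its adjusted p of 0.0214 was the largest of the 4, and it was the only 1 of them not under 0.01, a limit that 1.18% of all gene models passed as higher. Bgn lies on the X chromosome from 73483602 to 73495933 on the plus strand, in 7 exon blocks.

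Lpl, the lipase gene, had a mean of 22.8 normalized counts in young and 354 in old in the authors' deposited table. The ratio was 15.5 and the log2 fold change 3.96 (SE 0.79), with an interval at 95% from 5.34-fold to 45.1-fold and an adjusted p of 0.000134. It is on chromosome 8 from 68880491 to 68907448 on the plus strand, in 13 exon blocks. No exon of another annotated gene overlaps those of the 4 genes.

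**Figure D1:**
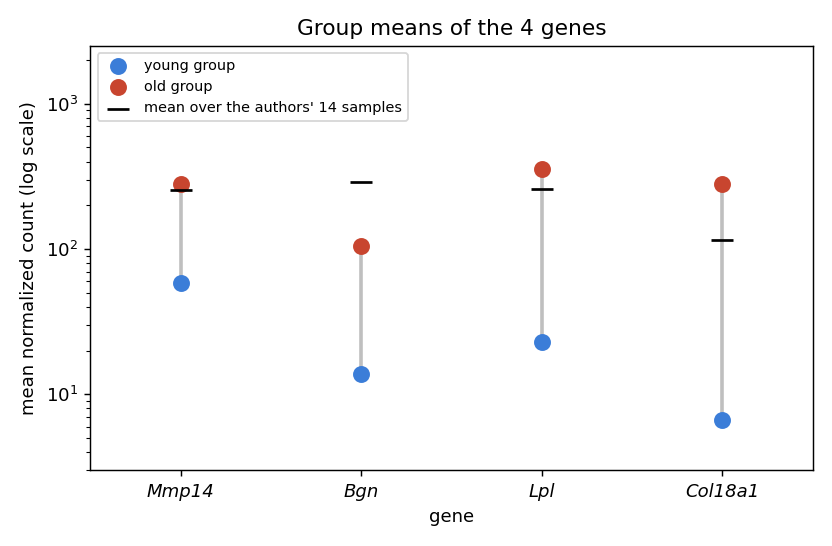
Mean normalized count (log axis) of each gene in the young group (blue) and the old group (red), joined by a grey line, with the authors' mean over 14 samples as a black dash. The old means of Mmp14, Col18a1 and Lpl lie between 280 and 354, the young means spread from 6.67 to 58.1, and only for Bgn is the dash (288) above both group means.

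The levels of the 4 genes were further apart in young than in old. On a scale of mean normalized counts per kilobase of annotated exon, which allows genes to be compared, young levels were 9.75 for Mmp14, 2.26 for Bgn, 2.18 for Lpl and 0.95 for Col18a1. Old levels per kilobase were 47.0 for Mmp14, 39.9 for Col18a1, 33.8 for Lpl and 17.1 for Bgn. The highest level was 10.3 times the lowest in young and 2.75 times in old. Col18a1 thus stood last of the 4 in young and second in old, while Mmp14 stood first in both. These orders carry no replicate spread, and the exon length of the authors' own gene models may differ from that of GENCODE.

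The 95% intervals of the 4 fold changes all contain the stretch from 2.62 to 3.12 on the log2 scale. That overlap is no test of the differences among the genes, which were not tested because these values chose them. The median of the 4 log2 fold changes was 3.44, against 2.37 for all 302 higher calls and 0.95 for all 769 listed gene models. All 4 genes were called higher in old at the authors' adjusted p under 0.05, a call that 2.56% of the 11778 gene models received, and since the choice of genes used that contrast nothing is read from their count.

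**Figure D2:**
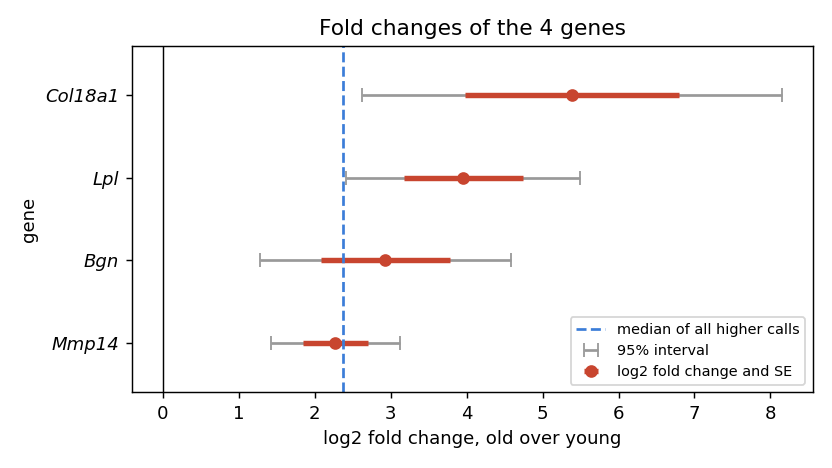
Log2 fold change of old over young for each gene (red points), with its SE (thick bar) and 95% interval (thin bar). The dashed line is the median of all higher calls, 2.37, which lies inside the intervals of Mmp14 and Bgn and below those of Lpl and Col18a1. All 4 intervals lie above 0.

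The SE of each gene was set beside the SEs of the 20 gene models with the most similar young and old means. For Bgn, 19 of these 20 had a smaller SE than its 0.85, with a median of 0.63. For Mmp14, 5 of 20 had a smaller SE, with a median of 0.52. Col18a1 (11 of 20 smaller, median 1.30) and Lpl (9 of 20 smaller, median 0.79) were in the middle of their neighbours. The large SE of Col18a1 was therefore usual among listed gene models of similar means, while that of Bgn was high among them. How either ranks among all gene models of such means is unknown, because larger SEs may be cut off.

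Likeness was the distance between the log2 group means, over 2 values only, among the listed gene models. The closest to Mmp14 were AK181808, Tcp11l2 and Gstt1, a glutathione S-transferase. For Col18a1 they were Darc, an atypical chemokine receptor, AK088937 and the caspase gene Casp12. For Bgn they were AB124611, Bcl3, an NF-kB cofactor, and Col16a1, which encodes a fibril-associated collagen. For Lpl they were S100a6, a calcium-binding protein gene, Tyrobp, an adaptor of myeloid receptors, and the chemokine gene Ccl6. Darc had 4.53 and 272 normalized counts in young and old, close to the 6.67 and 280 of Col18a1, in the authors' deposited table. Col16a1 had 15.6 and 88.5, close to the 13.8 and 104 of Bgn.

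**Figure D3:**
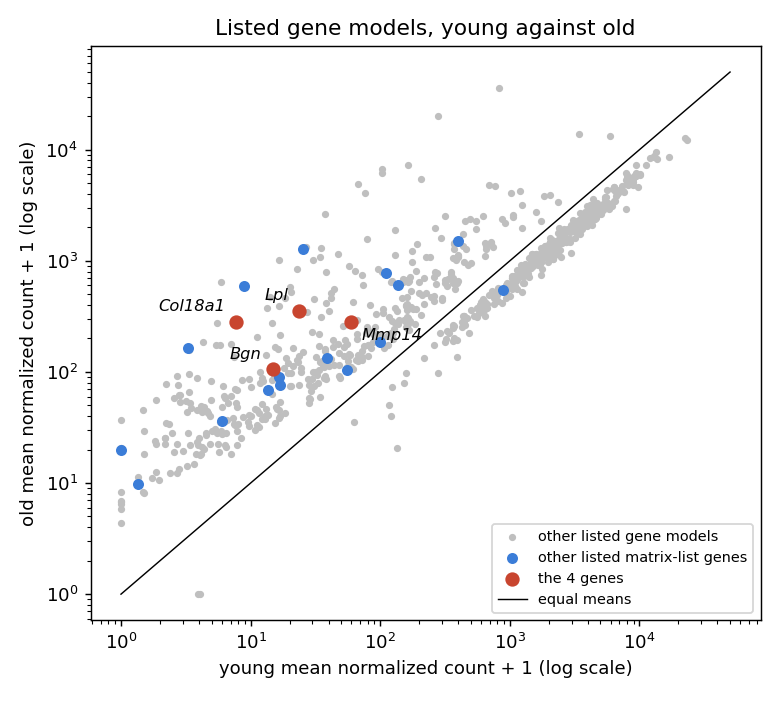
Mean normalized count plus 1 in the old group against the young group (both log axes) for the 769 listed gene models. The 4 genes (red, named) and most other matrix-list genes (blue) lie above the line of equal means, and Loxl3 is the only blue point below it.

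The neighbours of the 4 genes on their chromosomes were mostly not listed. Of the 8 protein-coding genes that flank them, 1 was in the table: Slc19a1, the reduced folate carrier gene next to Col18a1. It was lower in old, at 2395 in young and 1540 in old in the authors' deposited table (log2 fold change -0.64, SE 0.17, adjusted p = 0.0119), the opposite direction to Col18a1.

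Most genes of the matrix were not listed. Of 329 annotated genes in 11 lists of matrix parts, enzymes, receptors and partners of the 4 genes, 13 were called higher in old and 1 lower, 6 were listed without passing, and 309 carry no value. The 14 calls are 4.26% of these genes, beside 4.13% of all gene models called in either direction, a share near the background. By direction, 3.95% of these genes were called higher, beside 2.56% of all gene models, and 0.304% lower, beside 1.57%. Both 4.26% and 3.95% include the 4 genes, which were chosen as higher here, so no excess is read from them. List shares are of annotated genes and the background is of gene models the authors adjusted, so the denominators differ. Leaving out the 4 genes, 9 of 325 were called higher, beside the 2.56% of all gene models, and 1 lower. Of these 9, 5 are also markers of granulocytes or eosinophils. The lists were compiled from general knowledge, with earlier results of these data known.

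Among 39 collagens only Col18a1 and Col16a1 were called, both higher. Without Col18a1, chosen as higher, that is 1 of 38, beside 2.56% of all gene models called higher. No excess is read from counts this small. No fibrillar or basement membrane collagen of type I or type IV was listed. Col16a1 had a log2 fold change of 2.51 (SE 0.73) in the authors' deposited table. Of 35 proteoglycan genes, 3 were called higher, or 2 of 34 without Bgn. They were Bgn, Prg2 and Prg3, the last 2 of which encode granule proteins of eosinophils and belong to matrix lists by name. Prg2 went from 24.3 to 1283 normalized counts and Prg3 from a listed 0 to 18.7, in the authors' deposited table. Decorin, the closest relative of biglycan, was not listed. Among 51 other glycoproteins and basement membrane genes, 0 were called under the authors' DESeq adjusted p. How many would pass an unadjusted p is unknown, because the table stops at an adjusted p of 0.1. Mmrn1, which encodes the platelet and endothelial protein multimerin (means 137 and 603, adjusted p = 0.0772), and the matrix protein gene Ecm1 (37.8 and 131, adjusted p = 0.0819) appear in the authors' deposited table short of the limit.

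Of 54 matrix protease genes 4 were called, all higher: Mmp14, Mmp8, Mmp9 and Prtn3. Without Mmp14, chosen as higher, that is 3 of 53, beside 2.56% of all gene models called higher. Mmp8 and Mmp9, the collagenase and gelatinase stored in neutrophil granules, had log2 fold changes of 6.23 (SE 1.55) and 6.19 (SE 1.68) in the authors' deposited table. Prtn3, the neutrophil protease proteinase 3, went from 395 to 1498 normalized counts. Mmp25, a membrane-anchored protease of leukocytes, had 0.362 normalized counts in young and 8.77 in old in the authors' deposited table and did not pass (adjusted p = 0.0891). Mmp8 had a young mean of 7.85 normalized counts and Mmp9 of 2.27. The SE of Mmp14, 0.43, was below those of both. None of 20 protease inhibitor genes was listed, the Timp genes included, and none of 15 partners of Mmp14, among them Mmp2 and Timp2, so these have no value here.

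Enzymes that crosslink or process the matrix moved in both directions. Tgm2, a transglutaminase, rose from 110 to 781 normalized counts, a log2 fold change of 2.83 (SE 0.77) in the authors' deposited table. There the lysyl oxidase-like gene Loxl3 fell from 886 to 545 (-0.70, SE 0.17). They were the 2 called genes of 29 (6.9%), beside 4.13% of all gene models called in either direction. Of 39 matrix receptor genes 2 (5.13%) were called, both higher, beside 2.56% of all gene models called higher. They were the collagen receptor gene Lair1 (2.28, SE 0.59) and the syndecan gene Sdc2 (2.43, SE 0.72), which encodes a membrane heparan sulfate proteoglycan. A second syndecan gene, Sdc3, had 5.05 normalized counts in young and 35.2 in old in the authors' deposited table and did not pass (adjusted p = 0.0878). No integrin gene was listed.

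The partners of the other genes gave few values. Of 21 receptors, ligands and chain-building enzymes of biglycan, only the purinergic receptor gene P2rx4 had a row in the authors' deposited table, at 99.2 and 183 normalized counts, and it did not pass (adjusted p = 0.0551). Among 20 partners of collagen XVIII, only Mmp9 was called higher (5%), beside 2.56% of all gene models. Ctsl, whose cathepsin can release endostatin, did not pass in the authors' deposited table, with 54.4 and 103 normalized counts (adjusted p = 0.0900). Of 32 genes of the lipoprotein lipase pathway, only Lpl itself was listed: its anchor Gpihbp1, its chaperone Lmf1, the inhibitor Angptl4 and the fatty acid carrier Cd36 have no value here.

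**Figure D4:**
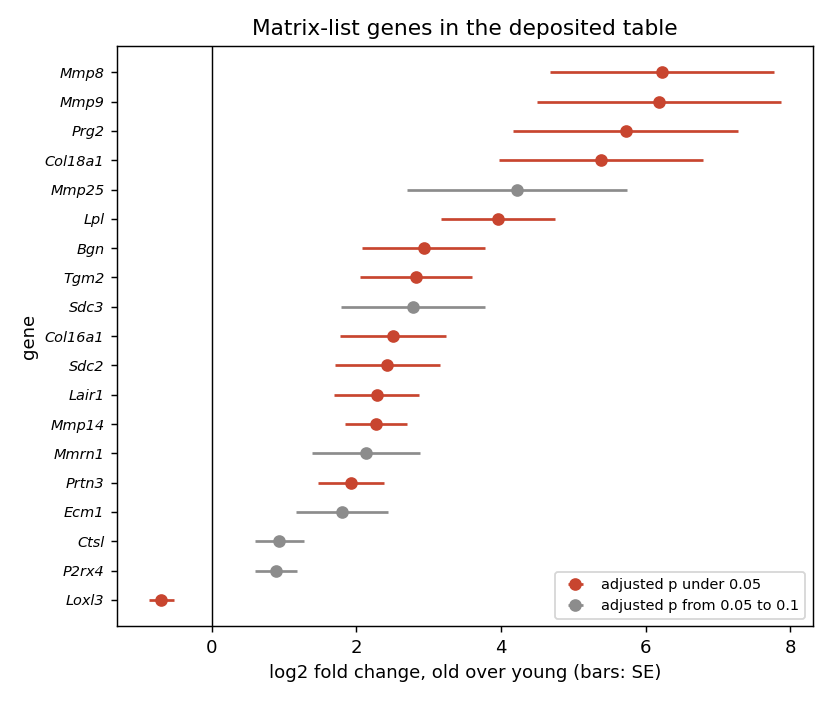
Log2 fold change of old over young (points) with the authors' SE (bars) for the matrix-list genes in the deposited table, leaving out Prg3, whose young mean is 0. Red points passed an adjusted p of 0.05, and Loxl3 (-0.70) is the only gene below 0.

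Markers of myeloid cells were also higher in the old group means. Whether they rose in the same libraries as the 4 genes could not be seen, with no value per library. Of 18 granulocyte and neutrophil markers 13 (72.2%) were called, all higher, beside 2.56% of all gene models called higher. The 14 listed ones summed to 2050 normalized counts in young and 84011 in old, led by Ngp and Ltf. Of 20 monocyte and macrophage markers 4 (20%) were called, all higher, and the 8 listed ones summed to 3995 and 19288. Most of both sums came from Lyz2, at 3428 normalized counts in young and 13811 in old. The macrophage gene Cd68 went from 40.7 to 509 normalized counts and the lysosomal protease gene Ctss from 13.7 to 272, in the authors' deposited table. Of 13 eosinophil, basophil and mast cell markers 4 (30.8%) were called, all higher, with sums of 27.2 and 1398. Prg3 was the only marker of these 3 lists listed at 0 in young.

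Of the 13 matrix genes called higher, 5 are themselves markers of these myeloid cells: Prg3, Prg2, Prtn3, Mmp8 and Mmp9. The 4 genes are not among the markers, and Col16a1, Tgm2, Lair1 and Sdc2 make up the rest. Macrophages are known to express Lpl and Mmp14. The sort on Lin-cKit+Sca1-CD150+CD41+ is designed to remove mature myeloid cells as well as stroma, endothelium and adipocytes. The part of myeloid cells in the values of the 4 genes was not tested. Of 40 markers of mesenchymal stroma and osteoblasts, endothelium and adipocytes, which are known sources of Bgn, Col18a1 and Lpl in marrow, 0 were listed, Col1a1, Cxcl12, Cdh5 and Adipoq included. An unlisted gene has no value here, so these markers may be absent, unchanged or short of the table's limit, and the part of those cells was not tested either.

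The remaining marker lists had few calls in number, and most of their genes carry no value. Their shares were above the 2.56% of all gene models called higher, but each rests on 1 to 3 genes. As for the matrix lists, the denominators differ, so no excess is read from these shares. In the haematopoietic stem cell list 3 of 15 (20%) were called higher, with sums over the 5 listed genes of 1408 in young and 3708 in old. In the erythroid list 2 of 12 (16.7%) were called, in the lymphoid list 2 of 14 (14.3%) and in the megakaryocyte list 1 of 18 (5.56%), all of them higher.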

How the data were processed

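RNA of sorted megakaryocyte progenitors was sequenced in 3 young and 4 old libraries, grouped by the age label. Per the submitters' processing notes, the authors used Bowtie2, STAR, DESeq and build mm10, without versions or roles. How reads were counted, and on which strand, is not stated. The deposited file is 1 table of the authors' comparison, per the file headers: the mean normalized count of each group and over 14 samples (a scaled signal), the log2 fold change, its SE, the Wald score, and the p-value before and after adjustment. It lists gene models with an adjusted p up to 0.0993. Gene models under 0.05 are called. The number adjusted, 11778, was recovered from the deposited p-values by a routine tested on simulated data.

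The members and lists were chosen with earlier results of these data known. Genes were named if they were among the 4, in a matrix list and listed, among the 3 nearest gene models by log2(mean + 1), or, of each marker list, up to 4 called examples of highest old mean. Slc19a1 and the genes of the sort phenotype were chosen after their values were seen. List symbols were matched to GENCODE M21 and RefSeq names (511 of 512). Promoters and motifs came from RefSeq (GRCm38.p6), and the motifs were chosen after the values were seen. Python 3.11.15, pandas 2.3.3, numpy 2.4.6, scipy 1.17.1 and matplotlib 3.10.9 were used. No model was fitted, since no value per library was analysed here; depth is unknown and no counting interval was made. Alternatives were other adjusted p limits, a mean minimum, a fold minimum, pseudocounts and recentring.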

Additional observations from a re-analysis of the deposited data

Results flagged for a closer look

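Bgn was singled out by the mean over the authors' 14 samples, a column that enters no comparison: at 288 normalized counts it was above both the young mean of 13.8 and the old mean of 104. The 14 samples exceed the 7 libraries of this series, so the column holds samples outside it. If the 3 young and 4 old libraries are among them, the other 7 samples averaged 510 normalized counts of Bgn. With 2 old libraries behind the old mean, the other 9 averaged 420. The same arithmetic with 4 old libraries gives 324 for Mmp14, 308 for Lpl and 65.8 for Col18a1, and with 2 it gives 314, 318 and 114. On either reading Col18a1 was higher in the old group (280) than in the other samples, and Bgn was lower (104). A 14-sample mean above both groups was common among the calls: 211 of the 302 higher calls (69.9%) had one, against 1 of the 4 genes. What the other samples are, and whether the authors' SEs rest on them, was not stated.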

How the results depend on the processing

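All 4 genes were called higher at adjusted p limits of 0.05 and 0.1, at a mean count of at least 50 and at a log2 fold change of at least 1. At a limit of 0.01 there were 3, without Bgn. Over 16 alternative values of their fold changes (the ratio of the means with pseudocounts of 0, 1 and 10, and recentring by the median of the lower calls, -0.72), 0 reversed, 15 stayed within 1 SE and 1 moved further, that of Mmp14, which was 2.99 when recentred. The value of Col18a1 went from 5.39 to 4.12 with a pseudocount of 10, within its SE of 1.41. The values ran from 2.09 to 6.10. At a limit of 0.01 the matrix genes called fell to 8 from 14, the cell type markers to 17 from 29 and all gene models to 180 from 487. All gene models called were 769 at a limit of 0.1 and 286 at a log2 fold change of at least 1, where 94.4% were higher, against 62.0% in the main count. These counts differ by the construction of each limit. No paired analysis was possible because the deposited columns are group means and carry no replicate number. For the same reason leaving out a library, edgeR's and DESeq2's normalizations and the replicate block were not run. With no depth, what low counts such as the young mean of Col18a1 allow could not be computed.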
